A study of Mus musculus with 18 samples.

Results

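The rows named for 10 genes of the polyamine pathway were followed by RNA sequencing in MIN6 cells, an insulin-secreting beta cell line of the mouse. They were the rows with the symbols Odc1, Sat1, Smox, Srm, Sms, Azin1, Oaz3, Arg2, Dhps and Particl, chosen by symbol from the 24557 rows of the deposited count tables. The 18 libraries fell into 6 groups of 3, all treated for 24 h. The groups were vehicle, 5 mM DFMO and 10 µM DENSpm, each without and with a mix of cytokines, namely interleukin 1 beta at 25 ng/ml, tumour necrosis factor alpha and interferon gamma. The amounts of the other two cytokines are not repeated here, because the units in their label are in doubt. Libraries were strand-specific and made from poly(A) RNA of this single cell line. The labels call the replicates biological. Each p-value sets a difference between groups against the spread among replicate libraries, estimated over all groups of a fit.

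Polyamines are small basic molecules that bind nucleic acids and are needed for growth and translation. Ornithine decarboxylase (Odc1) makes putrescine from ornithine, which arginase 2 (Arg2) supplies in mitochondria, and spermidine synthase (Srm) and spermine synthase (Sms) extend it. Spermidine/spermine acetyltransferase (Sat1) and spermine oxidase (Smox) run the pathway backwards. Antizymes such as Oaz3, known from the testis, inhibit ornithine decarboxylase, and the antizyme inhibitor Azin1 relieves that. Deoxyhypusine synthase (Dhps) uses spermidine to modify the translation factor eIF5A. Methionine adenosyltransferase (Mat2a) makes S-adenosylmethionine, from which the aminopropyl groups of spermidine and spermine come, and Particl is a non-coding transcript from the Mat2a promoter on the other strand. DFMO is an irreversible inhibitor of ornithine decarboxylase. DENSpm is a spermine analogue known to induce polyamine acetylation and lower polyamine pools.

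The symbol of a row did not always say which transcript the row could count. In all libraries together, 83.3% of counts lay in the 5840 rows with an exon that lies across from an exon of a gene on the other strand, with 80.7% to 85.2% in single libraries. A row with many counts is therefore given here with the gene it faces. Of the 10 member rows, 4 faced a protein-coding gene and 5 faced no exon. Azin1 faced the non-coding gene Gm49077 over 358 bp. The Oaz3 row (gene ID 53814, chr3:94432414-94443915, minus strand) overlapped the last exon of Tdrkh over 2255 bp, which is 52.1% of its exon length, and an exon of Mrpl9 over 157 bp. The Particl row (gene ID 78108, chr6:72439051-72440610, plus strand) overlapped the first exon of Mat2a over 508 bp, or 32.6% of its length. The Arg2 row (gene ID 11847, chr12:79130777-79156301, plus strand) shared 285 bp of its last exon with the last exon of Vti1b, or 20.0% of its length, and 116 bp with the non-coding Gm48780. The Dhps row (gene ID 330817, chr8:85071757-85075162, plus strand) shared 128 bp with the last exon of Wdr83, or 5.5% of its length. Coordinates are those of GRCm38, the assembly also called mm10.

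**Figure D1:**
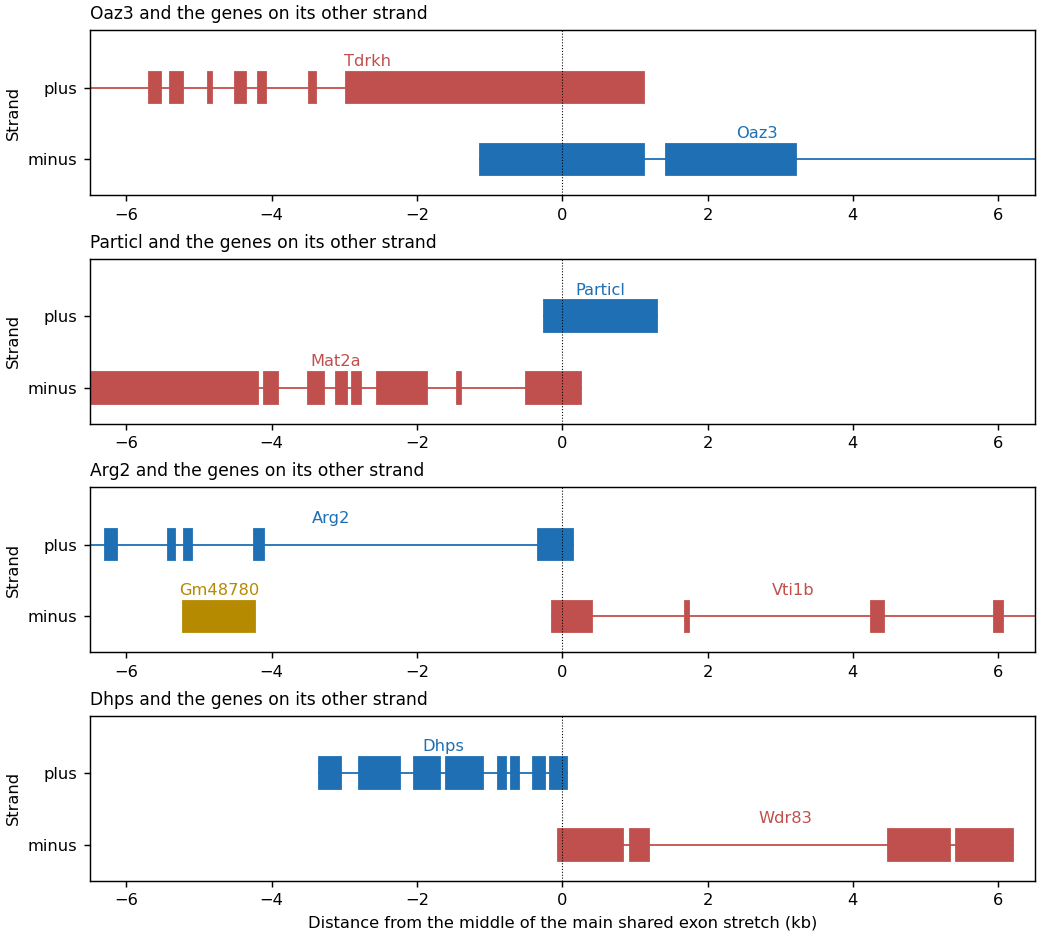
Exons (boxes) of the Oaz3, Particl, Arg2 and Dhps genes in blue and of the genes on their other strand in red or ochre, by distance in kb from the middle of the main shared exon stretch (dotted line). Tdrkh faces Oaz3 over 2255 bp, whereas Wdr83 faces Dhps over 128 bp.

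The edge of each shared stretch is shown on the strand of the facing gene, because a read counted on the opposite strand would carry these letters into the member's row. Capitals mark the 15 bases that also lie in an exon of the member, read here 5′ to 3′ from GRCm38.
Tdrkh, chr3:94432399-94432428, plus strand, entering Oaz3: agatgctcaaaggttAAGAACACTGACTGC
Mat2a, chr6:72439036-72439065, minus strand, leaving Particl: TCGCCTGGAAAAACCtcaagtgggcgaccc
Vti1b, chr12:79156287-79156316, minus strand, entering Arg2: cagcaacaagaccagTATGATATACTAAGG
Wdr83, chr8:85075148-85075177, minus strand, entering Dhps: accaaggatgcagacTGACTCAGAAAACCC

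The Mat2a promoter window of RefSeq (GRCm38.p6, chr6:72439507-72439806, minus strand), which runs from 250 bases before to 50 bases after the start of the gene, is shown because all 300 of its bases lie inside the exon of Particl. Only its last bases belong to the Mat2a transcript as well. Capitals mark the motifs searched on both strands, TATAAA on the printed strand and CCAAT on the other, where it reads ATTGG here.
Mat2a promoter window: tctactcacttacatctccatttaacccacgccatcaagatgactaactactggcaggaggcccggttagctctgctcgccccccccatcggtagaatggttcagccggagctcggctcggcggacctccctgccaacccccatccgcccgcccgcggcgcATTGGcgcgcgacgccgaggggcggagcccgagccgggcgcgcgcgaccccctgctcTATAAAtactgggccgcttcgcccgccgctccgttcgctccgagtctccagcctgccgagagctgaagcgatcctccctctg
These motifs do not overlap each other. TATAAA was present in 13.6% and CCAAT in 37.4% of the 32851 windows of the same length in that table. Of the 10 member symbols, 6 had a window in it.

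Conversely, only a row lying opposite a polyamine gene can read that gene if reads are assigned to the other strand. In a list of 58 pathway genes, 8 had such a row, and 9 rows did this. Those 9 included 1 member row, that of Particl, which faces Mat2a. The Mat2a row faces Particl, the Vti1b row faces Arg2, the Wdr83 row faces Dhps over 128 bp and Wdr83os over 539 bp, and the Tdrkh and Mrpl9 rows face Oaz3. The others were the rows of Echs1 opposite Paox, Ankmy1 opposite Gpc1 and Plg opposite Slc22a3. No row lay opposite an exon of Odc1, Sat1, Smox, Srm, Sms or Azin1. For these 6 genes, which include the target of DFMO and the acetyltransferase that DENSpm is known to induce, the tables hold no row that could read them on the other strand.

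Among the 10 members, which were chosen with earlier results of these data known, counts followed this division. Library totals ran from 403377 to 639625 counts, and the member rows took between 0.0949% and 0.139% of them. The 4 rows that face a protein-coding gene held 9986 of the 10298 member counts, or 97.0%, and the other 6 held 312. Per kb of exon, the mean level was 379 CPM (read counts scaled to a common library size, with TMM factors) for Particl, 94.4 for Arg2, 74.0 for Oaz3 and 49.0 for Dhps. It was 3.14 for Odc1, 2.52 for Azin1, 2.25 for Srm, 1.66 for Sat1, 0.143 for Sms and 0.0265 for Smox. Every one of the first 4 rows thus lay above every one of the other 6. These levels divide by the whole exon length of a row. The main shared stretch was between 5.5% (Dhps) and 52.1% (Oaz3) of it in the first 4 rows. Their order is therefore not an order of levels over that stretch. Outside the members the division did not hold for several rows. Slc3a2, Pycr1, Slc7a1, Eif5a, Atp13a3 and Aldh18a1 are pathway rows that face no exon. In vehicle alone they held 128, 56, 55, 47, 28 and 27 counts, and more in the other groups. Of the rows opposite a pathway gene, Mat2a, Wdr83 and Vti1b held 2574, 1284 and 201 counts in all. Tdrkh, Echs1, Mrpl9, Ankmy1 and Plg, also opposite a pathway gene, held 26, 12, 8, 0 and 0. RNA of a whole culture was sequenced and scaled to library size. A smaller share of cells with a transcript and less of it per cell cannot be told apart in any level below.

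The biosynthetic rows were near the limit of detection. Odc1 had 6, 0 and 8 raw counts in vehicle, 4, 6 and 10 in vehicle with cytokines, 2, 2 and 12 in DFMO, 2, 11 and 4 in DFMO with cytokines, 6, 2 and 6 in DENSpm, and 0, 11 and 2 in DENSpm with cytokines. The ranges of all 6 groups overlapped. Under DFMO without cytokines the fold change of the Odc1 row was 0.46 ± 1.14 on the log2 scale (SE, n = 3 and 3), with an interval (95%) of -1.84 to 2.76 and an adjusted p of 0.878 in edgeR's quasi-likelihood test with Benjamini-Hochberg adjustment. A change of several fold in either direction lay within that interval. Srm held 30 counts in all, at most 6 in a library, and Sms held 8, with a count above 0 in 3 libraries.

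The catabolic rows were also near that limit. Sat1 held 42 counts in 7 of the 18 libraries, with 2, 0 and 2 in vehicle, 6, 6 and 0 in vehicle with cytokines, 0 in all 3 DFMO libraries, 0, 0 and 8 in DFMO with cytokines, 0, 0 and 8 in DENSpm, and 0, 10 and 0 in DENSpm with cytokines. Every group held a library at 0. Over a group of 3 libraries, 3 counts correspond to between 1.83 and 2.36 CPM, the level that a count of 0 allows, counting error only. Smox held 1 count in 1 vehicle library. The regulator Azin1 had a count in every library, from 2 to 16, and 137 in all. None of the 6 rows moved in a way that separated the groups. In these 6 rows, 50 of the 56 counts above 0 were even (89.3%), against 36 of 72 (50.0%) in the 4 abundant rows. Whether a fragment of these genes added 2 counts was not tested; if so, intervals from such counts would be too narrow.

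**Figure D2:**
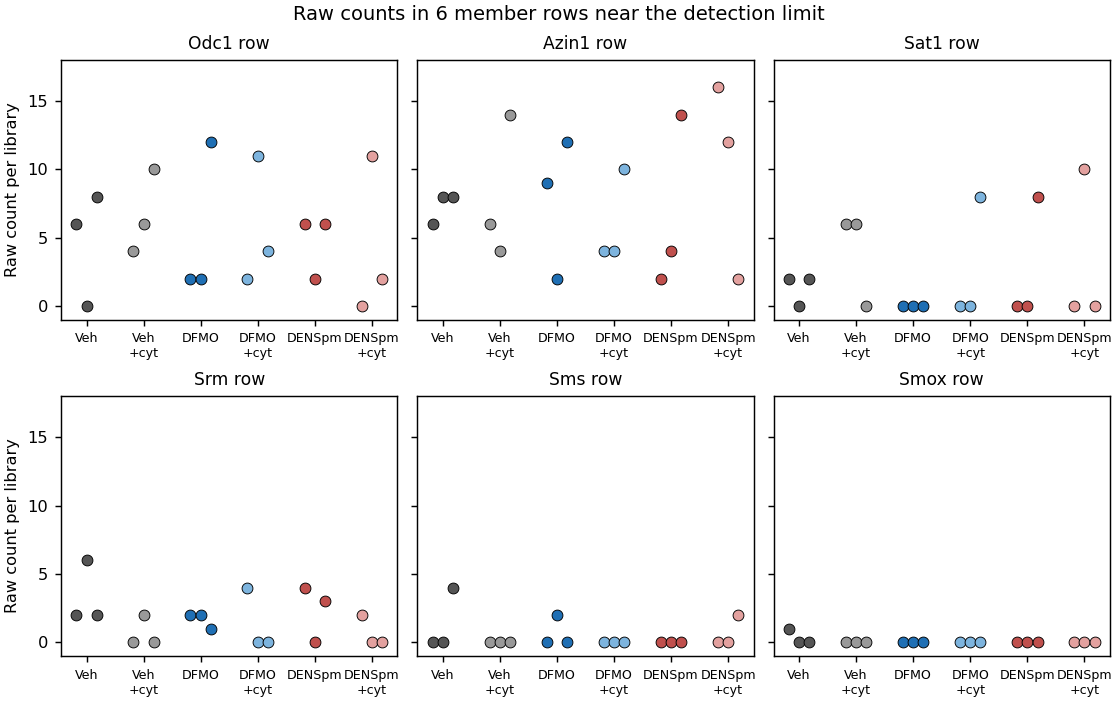
Raw counts per library (y axis) in the rows of Odc1, Azin1, Sat1, Srm, Sms and Smox, by group (x axis; cyt, cytokines). Each point is 1 library; no count exceeds 16 and the groups overlap in every panel.

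After the filter on low counts, 5 member rows could be tested for DFMO (Oaz3, Arg2, Dhps, Particl and Odc1), 5 for DENSpm (Azin1 in place of Odc1) and all 6 of these in the fit of all libraries. Sat1, Smox, Srm and Sms were tested nowhere. A row was called where its adjusted p was under 0.05, and all values below are for the row, not for the gene whose symbol it bears. Rows without overlap between groups, and rows with an unadjusted p under 0.05, were not counted over all rows tested. Both are therefore given as a description and not as further support for a change.

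**Figure D3:**
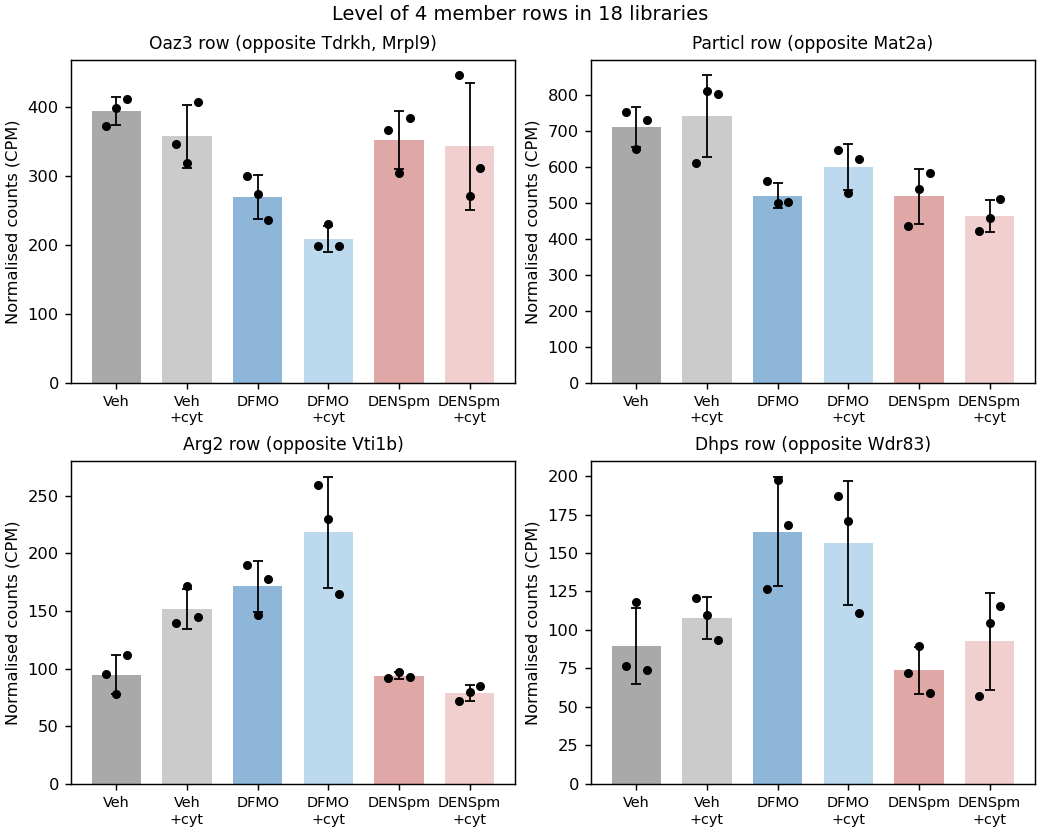
Normalised level in CPM (y axis, from 0) of the Oaz3, Particl, Arg2 and Dhps rows in the 6 groups. Bars are means of 3 libraries, error bars are SD, and points are libraries; the DFMO bars are the lowest for Oaz3 and among the highest for Arg2 and Dhps.

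Under DFMO without cytokines 2 of the 5 member rows tested rose and 2 fell. Of all rows, 14.6% were called, 8.06% as higher and 6.54% as lower. Because members were chosen with earlier results of these data known, these shares cannot be read as an excess in the pathway. The antizyme row Oaz3, opposite Tdrkh, stood at 372, 398 and 411 CPM in the vehicle libraries and at 299, 273 and 236 CPM in the DFMO libraries. Particl, opposite Mat2a, stood at 753, 648 and 731 CPM in vehicle and at 559, 499 and 501 CPM in DFMO. For both rows every DFMO library lay below every vehicle library. Arg2, opposite Vti1b, stood at 94.8, 77.5 and 112 CPM in vehicle and at 190, 146 and 178 CPM in DFMO. Dhps, opposite Wdr83, stood at 76.2, 118 and 74.0 CPM in vehicle and at 126, 197 and 168 CPM in DFMO. For these rows every DFMO library lay above every vehicle library. On the log2 scale Oaz3 fell by 0.53 ± 0.18 (SE, n = 3 and 3; adjusted p = 0.0352, edgeR quasi-likelihood) and Particl by 0.43 ± 0.14 (adjusted p = 0.026). Arg2 was higher by 0.86 ± 0.26 (adjusted p = 0.0157) and Dhps by 0.91 ± 0.29 (adjusted p = 0.023). The Mat2a row, which faces Particl, was at 0.29 ± 0.19 with an adjusted p of 0.358.

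Each of these calls was lost when certain single libraries were left out. The Oaz3 call was lost without vehicle replicate 1, 2 or 3 (adjusted p = 0.0623, 0.097 and 0.117) and without DFMO replicate 2 or 3 (0.0803 and 0.185). The Particl call was lost without vehicle replicate 1 or 3 (0.114 and 0.0769) and DFMO replicate 2 or 3 (0.0884 and 0.104). The Arg2 call was lost without vehicle replicate 1 or 2 (0.058 and 0.0896) and DFMO replicate 1 or 3 (0.0718 and 0.052). The Dhps call was lost without vehicle replicate 1 or 3 (0.122 and 0.134) and DFMO replicate 2 or 3 (0.174 and 0.067). All 4 kept their direction in these fits. Without the filter on low counts, Dhps, Oaz3 and Particl were no longer called (adjusted p = 0.0662, 0.129 and 0.114).

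In the presence of cytokines, 1 member row of 5 fell under DFMO, with 11.1% of all rows called and 5.78% called as lower. The Oaz3 row stood at 345, 318 and 406 CPM in vehicle with cytokines and at 198, 230 and 198 CPM in DFMO with cytokines, with no overlap. It fell by 0.78 ± 0.19 on the log2 scale (SE, n = 3 and 3; adjusted p = 0.00225, edgeR quasi-likelihood) and stayed called whichever of the 6 libraries was left out. The other abundant rows had values of the same sign as without cytokines but were not called. Arg2 was at 0.51 ± 0.25 (adjusted p = 0.213), Dhps at 0.52 ± 0.29 (adjusted p = 0.282) and Particl at -0.32 ± 0.14 (adjusted p = 0.148). In the test of the difference between the DFMO effects with and without cytokines, 0 member rows were called, 0 had an unadjusted p under 0.05 in edgeR, 0 were called by DESeq2, and 0.424% of all rows were called. These DFMO comparisons use different vehicle libraries.

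Under DENSpm alone, 0 member rows of 5 were called in edgeR and 0 in DESeq2, with 0.543% of all rows called in edgeR, and 1 member row had an unadjusted p under 0.05. That row was Particl, at 434, 538 and 581 CPM against 753, 648 and 731 CPM in vehicle. Its groups did not overlap, and its fold change was -0.44 ± 0.16 on the log2 scale (SE, n = 3 and 3; adjusted p = 0.233, edgeR quasi-likelihood). The Arg2 row stood at 91.6, 97.1 and 92.9 CPM, inside the vehicle range, with a fold change of -0.01 ± 0.28. Oaz3 was at -0.15 ± 0.19 and Dhps at -0.26 ± 0.33. The vehicle libraries are those of the DFMO comparison, so the values of Particl under DFMO and DENSpm are not independent.

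With cytokines, 1 member row fell under DENSpm, with 1.33% of all rows called and 0.754% called as lower. Particl stood at 610, 810 and 801 CPM in vehicle with cytokines and at 422, 457 and 510 CPM in DENSpm with cytokines, so the groups did not overlap. It fell by 0.68 ± 0.16 on the log2 scale (SE, n = 3 and 3; adjusted p = 0.0289, edgeR quasi-likelihood). The call was lost without vehicle with cytokines replicate 2 or 3 (adjusted p = 0.16 and 0.163), without DENSpm with cytokines replicate 1, 2 or 3 (0.125, 0.105 and 0.0557), and without the filter on low counts (0.0814). The Mat2a row was at -0.05 ± 0.21 (adjusted p = 0.96). The Arg2 row stood at 139, 171 and 145 CPM in vehicle with cytokines and at 71.7, 79.4 and 85.0 CPM in DENSpm with cytokines. These groups did not overlap either, but the fold change of -0.95 ± 0.28 was not called in edgeR (adjusted p = 0.0943), whereas DESeq2 gave an adjusted p of 0.0368. Dhps was at -0.22 ± 0.33 and Oaz3 at -0.06 ± 0.19. In the test of whether the DENSpm effect differed with cytokines, 0% of all rows and 0 member rows were called, also in DESeq2, and 1 member row had an unadjusted p under 0.05. It was Arg2, at -0.94 ± 0.40 (adjusted p = 0.942, edgeR quasi-likelihood).

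**Figure D4:**
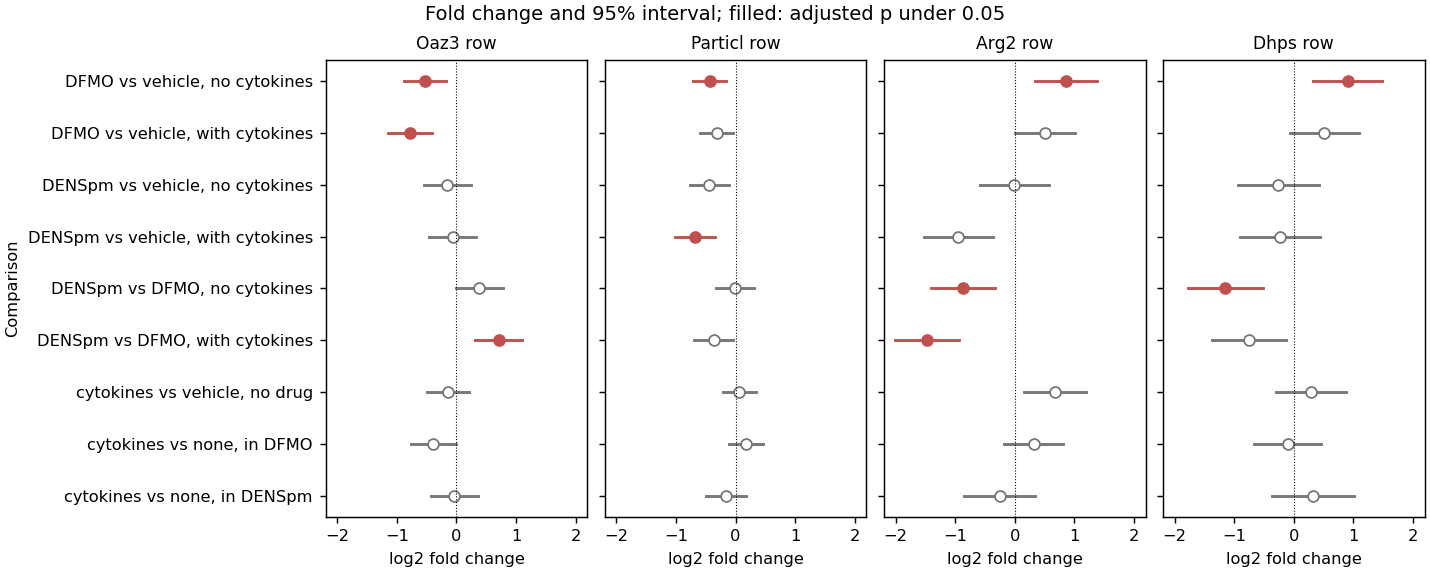
Log2 fold change (x axis) with its 95% interval for the Oaz3, Particl, Arg2 and Dhps rows in 9 comparisons (y axis). Filled red points have an adjusted p under 0.05; Oaz3 is lower under DFMO with and without cytokines, and Arg2 is lower in DENSpm than in DFMO in both settings.

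The treatments were also compared with each other, at their own doses of 10 µM DENSpm and 5 mM DFMO. Without cytokines, 2 of the 6 member rows tested were lower in DENSpm, with 11.2% of all rows called and 5.31% called as lower. Arg2 was lower by -0.87 ± 0.26 on the log2 scale (SE, n = 3 and 3; adjusted p = 0.025, edgeR quasi-likelihood) and Dhps by -1.15 ± 0.31 (adjusted p = 0.01). The DENSpm libraries of the Dhps row, at 71.9, 89.6 and 59.3 CPM, all lay below the DFMO libraries, and so did those of Arg2. The Arg2 call was lost without DFMO replicate 1 or 3 (adjusted p = 0.108 and 0.0786), without DENSpm replicate 1, 2 or 3 (0.0822, 0.0584 and 0.0723), and without the filter on low counts (0.159). The Dhps call was lost without DFMO replicate 2 or DENSpm replicate 3 (0.0708 and 0.0589). Particl was at the same mean in both, 518 ± 75.7 CPM in DENSpm and 520 ± 34.2 CPM in DFMO (SD, n = 3), with a difference of 0.00 ± 0.16. Oaz3 was higher in every DENSpm library than in any DFMO library, at 0.39 ± 0.19, but was not called (adjusted p = 0.22).

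With cytokines, 1 member row was lower and 1 higher in DENSpm than in DFMO, with 10.2% of all rows called, 4.79% as lower and 5.36% as higher. The lower row was Arg2. This row stood at 260, 230 and 165 CPM in DFMO with cytokines, against at most 85.0 CPM in DENSpm with cytokines. The difference was -1.47 ± 0.27 on the log2 scale (SE, n = 3 and 3; adjusted p = 0.000107, edgeR quasi-likelihood), and it stayed called whichever of the 6 libraries was left out. Oaz3 stood at 445, 270 and 312 CPM in DENSpm with cytokines, above all DFMO with cytokines libraries, a difference of 0.71 ± 0.20 (adjusted p = 0.0132). That call was lost without DFMO with cytokines replicate 1 or 3 (0.0528 and 0.0606) or DENSpm with cytokines replicate 1 (0.226). In that last fit the Oaz3 difference was 0.47. Dhps was at -0.75 ± 0.31 (adjusted p = 0.124) and Particl at -0.37 ± 0.16 (adjusted p = 0.147).

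Under cytokines alone, 0 member rows were called in edgeR and 0 in DESeq2, with 9.9% of all rows called, and 1 member row had an unadjusted p under 0.05. That row was Arg2, higher in all 3 libraries with cytokines than in any without, at 0.67 ± 0.26 on the log2 scale (SE, n = 3 and 3; adjusted p = 0.0995, edgeR quasi-likelihood). Dhps was at 0.29 ± 0.29, Oaz3 at -0.14 ± 0.18 and Particl at 0.06 ± 0.14. In DFMO, where 13.1% of all rows were called with cytokines, 0 member rows were called by edgeR or DESeq2 and 1 had an unadjusted p under 0.05. Oaz3 was that row, at -0.39 ± 0.19 (adjusted p = 0.192), with no overlap, while Arg2 was at 0.32 ± 0.25, Particl at 0.18 ± 0.14 and Dhps at -0.10 ± 0.28. In DENSpm, with 7.42% of all rows called, 0 member rows were called by either tool and 0 had an unadjusted p under 0.05, and Arg2 was at -0.25 ± 0.29, Dhps at 0.33 ± 0.33, Particl at -0.16 ± 0.16 and Oaz3 at -0.04 ± 0.19.

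The order of the 6 groups differed from row to row. Oaz3 was highest in vehicle, at 394 ± 20.0 CPM (SD, n = 3), and lowest in DFMO with cytokines, at 208 ± 18.6 CPM, and only the last step, from DFMO to DFMO with cytokines, was free of overlap between neighbours. Arg2 ran from 218 ± 48.4 CPM in DFMO with cytokines down to 78.7 ± 6.66 CPM in DENSpm with cytokines, and did not overlap between vehicle with cytokines and vehicle or between DENSpm and DENSpm with cytokines. Particl ran from 740 ± 113 CPM in vehicle with cytokines to 463 ± 44.3 CPM in DENSpm with cytokines. Its one step free of overlap, between vehicle and DFMO with cytokines, was nearly a tie. The lowest vehicle library was at 647.8 CPM and the highest DFMO with cytokines library at 647.6 CPM. Dhps ran from 164 ± 35.7 CPM in DFMO to 73.6 ± 15.2 CPM in DENSpm, and all its neighbours overlapped.

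The rows that face a polyamine gene were described by the same measure. The Wdr83 row, which faces Dhps and Wdr83os, held 1284 counts. It stood at 117, 96.9 and 107 CPM in vehicle and at 174, 222 and 187 CPM with cytokines, with no overlap. The difference was 0.86 ± 0.26 on the log2 scale (SE, n = 3 and 3; adjusted p = 0.0223, edgeR quasi-likelihood). It was lost without vehicle replicate 1, 2 or 3 (adjusted p = 0.0527, 0.0903 and 0.0686), without vehicle with cytokines replicate 2 (0.121) and without the filter on low counts (0.0622). Reads of Dhps and of Wdr83os in it cannot be told apart. The Mat2a row, which faces Particl, held 2574 counts and ran from 271 ± 29.8 CPM in vehicle to 325 ± 7.57 CPM in DFMO (SD, n = 3), with overlap between all neighbours in that order. Vehicle and DFMO themselves, at 239.8 to 299.2 and 317.2 to 332.2 CPM, did not overlap, but the difference was not called. The Vti1b row, which faces Arg2, held 201 counts, between 0 and 56.7 CPM in single libraries. The Tdrkh and Mrpl9 rows, which face Oaz3, held 26 and 8 counts in all.

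Of the 58 pathway rows, the filter left 14 for DFMO against vehicle, 12 for DENSpm against vehicle and 15 for the fit of all libraries, and every called row in this list was a member. The median fold change of the tested list rows under DFMO without cytokines was 0.02, against 0 over all rows tested, and with cytokines it was -0.27 against 0. Under DENSpm it was -0.08 against 0 without cytokines and -0.17 against 0.01 with them. Between DENSpm and DFMO it was -0.22 against 0.00 without and -0.32 against 0.01 with cytokines. Another 14 rows held no count at all. The rows of Nos2, Eif5a2 and Slc7a1, described next, face no exon, and no row lies opposite these genes. The doubt over strand stated for Odc1 and Sat1 holds for them too. The arginine-using enzyme Nos2, inducible nitric oxide synthase, was at 0 in all 9 libraries without cytokines and at 10, 2 and 4 raw counts in vehicle with cytokines. That is 6.64-fold above a floor of 3 counts over the group without cytokines, taken at the observed counts. The counting error of the observed counts is not included, so this ratio is not a lower bound, and it was not tested by a model. DFMO with cytokines had 4, 12 and 2 counts, and DENSpm with cytokines had 1, 1 and 6. Ratios taken in the same way were 6.52-fold and 2.62-fold. In each group 1 library held most of the counts, 10 of 16, 12 of 18 and 6 of 8. Without replicate 3 of DENSpm with cytokines, 2 counts remained, under the floor. Several uncalled rows had larger fold changes. Eif5a2, an isoform of the factor that Dhps modifies, stood at 0, 1 and 2 raw counts in vehicle and 4, 2 and 17 in DFMO, a log2 fold change of 2.99 ± 1.44 (adjusted p = 0.175, edgeR quasi-likelihood), which was 1.81 without DFMO replicate 3 and 3.67 without vehicle replicate 3. Slc7a1, the cationic amino acid transporter, had 12, 23 and 11 counts in vehicle with cytokines and 2, 2 and 7 in DFMO with cytokines, at -2.01 ± 0.73 (adjusted p = 0.0709), which was -2.77 without DFMO with cytokines replicate 3 and -1.62 without vehicle with cytokines replicate 2.

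The identity of the cells could be read only with the same limit. Of 15 beta cell markers, 14 had counts and Ucn3 had none. Their summed level was 1829 to 2551 CPM in vehicle, 1788 to 2131 in DFMO and 1730 to 1886 in DENSpm, and 1236 to 1392, 1161 to 1389 and 1542 to 2137 in the respective groups with cytokines. The islet hormone genes Ghrl, Gcg and Sst, which mark other islet cells, held 212, 83 and 42 counts. Their summed level was 33.5 to 43.0 CPM in vehicle, 25.7 to 71.0 in DFMO and 37.3 to 131 in DENSpm, and 11.6 to 19.8, 6.83 to 24.1 and 25.3 to 55.6 in the respective groups with cytokines. For 6 non-endocrine markers it was at most 4.72 CPM, with Ptprc, Col1a1 and Prss2 at 0. The part of these markers in the member values was not tested.

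Rows whose level over the 18 libraries was most like that of a member row were named by Pearson's r of log2 CPM, as a description that shares depth and treatment between points. They were Tmem54 (r = 0.858), Ilkap (0.856) and Ints8 (0.852) for Oaz3, and 5830417I10Rik (0.889), Alg1 (0.883) and Tmem62 (0.834) for Arg2. For Dhps they were Nol3 (0.863), Kif3c (0.837) and Mpp4 (0.817), and for Particl they were Lnx2 (0.823), Ccna2 (0.741) and Vps29 (0.736). These symbols carry the same doubt over strand as the members. By the largest shared stretch, Tmem54, Ilkap and Ints8 face Hpca, Erfe and Ccne2. Likewise 5830417I10Rik, Alg1 and Tmem62 face 1500004A13Rik, Eef2kmt and Gm44325. Nol3, Kif3c and Mpp4 face 4931428F04Rik, 1110002L01Rik and G730003C15Rik. Ccna2 and Vps29 face Exosc9 and Fam216a, and no facing gene was found for Lnx2.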

How the data were processed

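The submitters' processing notes name mm10, HTSeq, FastQC and DESeq2. The strand setting, like the aligner and annotation, was not given in the sources used here. The deposited values used were the authors' raw counts of reads per gene. The deposited log2 values were normalised by the authors with 1 factor per library and were used only to check that. Both tables held the same 6 vehicle libraries, with and without cytokines, and their counts were identical.

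Rows were matched by symbol to GENCODE M21 exons on GRCm38, and 395 rows were not matched. edgeR 4.0.16 in R 4.3.3 (quasi-likelihood test, robust, TMM factors, filterByExpr by group) tested 3302 rows for DFMO, 3315 for DENSpm and 3713 over all 18 libraries, with Benjamini-Hochberg adjustment over all rows tested. It was tested on simulated counts with 200 changed rows. For DFMO without cytokines it called 20.4% of 1.5-fold rises, 49.1% of 2-fold rises and 43.6% of falls to 0.5-fold. For DENSpm without cytokines these shares were 7.5%, 40.4% and 31.7%. The lack of a call alone therefore does not exclude such changes. These shares are averages over changed rows, and the interval of a single row can be narrower or wider. Under DENSpm without cytokines the interval on the log2 scale was -0.543 to 0.237 for Oaz3 and -1.902 to 1.842 for Azin1. For Particl under cytokines alone it was -0.211 to 0.337. The intervals of Oaz3 and Particl hold none of these changes, and that of Azin1 holds them all. CPM use TMM factors of the 18 libraries. Cytokines against vehicle were tested in the fit of the DFMO table. Alternatives were DESeq2 1.42.0, its size factors in edgeR, no filter, halved counts, a replicate block and each library left out. Ratios against a floor put 3 counts in place of 0 and use the observed count of the other group without its counting error.

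The rule for named rows was the 10 members, the rows facing a member or a pathway gene, each called row of the pathway list, and the 3 rows most correlated with each member of at least 50 CPM. Nos2, Eif5a2 and Slc7a1 were chosen after their values were seen. Members and lists were chosen with earlier results of these data known. Further markers of other islet cells are not reported here.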

Additional observations from a re-analysis of the deposited data

How the results depend on the processing

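Of 476 recomputed fold changes, 413 kept their direction and side of the threshold, 42 kept only the direction, 1 became called and 20 changed sign, all of the last among uncalled values near 0 or with wide intervals. Replicate numbers did not pair the libraries: over 45 same-numbered pairs r ran from -0.06 to 0.097, and 7 of 18 libraries matched best with their own number. With a replicate block the DFMO comparison without cytokines called 4 members and 458 rows, and the block changed no member count. Without the filter on low counts, 1 member was called for DFMO without cytokines, 0 for DENSpm with cytokines and 1 for DENSpm against DFMO without cytokines, where Particl was at 0.02. More rows were then tested. All rows called for DENSpm without cytokines (18) became 30 without the filter, 31 with halved counts and 47 in DESeq2. With cytokines (44) they became 67 with halved counts and 99 in DESeq2, which called 2 members. Leaving out single libraries gave 0 to 3 called members for DFMO without cytokines, 0 to 1 for DENSpm with cytokines, 0 to 1 for DENSpm against DFMO without cytokines and 1 to 2 with cytokines. All rows called then ran from 2 to 32 for DENSpm without cytokines, 7 to 21 for DENSpm with cytokines, 269 to 351 for DENSpm against DFMO without cytokines and 5 to 19 for the DFMO interaction. Fold changes that changed sign ran from -0.77 to 0.93 for Odc1 under DFMO, -0.25 to 0.11 for Dhps with cytokines in DFMO, -0.006 to 0.19 for Particl with cytokines, -0.13 to 0.14 for Arg2 under DENSpm, -0.22 to 0.14 for Mat2a, -0.32 to 0.094 for Oaz3 and -0.40 to 0.005 for Dhps under DENSpm with cytokines, -0.29 to 0.12 for Oaz3 with cytokines in DENSpm, and -0.10 to 0.11 for Particl between DENSpm and DFMO without cytokines. The cause was not tested. The 6 rarest rows held 312 counts, and the part of depth in this was not tested.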
